A study of Mus musculus with 6 samples.

Results

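The replication-dependent histone genes encode the H1, H2A, H2B, H3 and H4 proteins that package newly made DNA. Their members here are the rows whose symbols begin with Hist1h, Hist2h, Hist3h or Hist4h, or carry the newer clustered names (H1f1 to H1f6 and the numbered H2ac, H2bc, H3c and H4c genes), without pseudogenes. The rule found 64 of the 27179 genes listed in each deposited table, namely 6 H1, 17 H2A, 17 H2B, 12 H3 and 12 H4 genes. By RefSeq on GRCm38.p6, 54 of them lie on chromosome 13 between 21715711 and 23934913, and 10 lie on chromosome 3 between 96219885 and 96270192.

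C2C12 cells, mouse myoblasts that fuse into myotubes in low serum, were harvested 48 h after confluent cultures were switched to 2% horse serum with insulin at 2 µg/ml. Stable lines of 3 kinds were sequenced, with 2 libraries each. One carried an shRNA against BAF250A, one an shRNA against BRD9, and the third a scrambled, non-targeting shRNA. Arid1a encodes BAF250A, a subunit found in canonical BAF complexes, while BRD9 is a subunit of ncBAF, another SWI/SNF complex. The sources used here do not give the number of shRNA sequences or clones behind each line, or how messenger RNA was selected from total RNA. The authors compared each knockdown with the same scrambled libraries, and values of the 2 comparisons therefore share their controls. By the authors' deposited tables, the targeted genes fell with their own shRNA, Arid1a at -1.95 (SE 0.48) with BAF250A shRNA and Brd9 at -1.60 (SE 0.54) with BRD9 shRNA on the log2 scale.

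As background, these genes are transcribed mainly in S phase, when histone protein is needed for new chromatin, and their messages decline when DNA synthesis stops. They are short, mostly without introns, and most of their messages end in a stem-loop bound by SLBP in place of a poly(A) tail. Myoblasts leave the cell cycle as they differentiate, and replacement histones, which are made outside S phase as ordinary polyadenylated messages, then supply chromatin.

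The stem-loop is shown first because it defines the messages. The longest coding GENCODE M21 transcript of each of the 64 genes was read on GRCm38, and other transcripts were not counted. Of these 64, 42 held a perfectly paired stem of 6 bases around a loop of 4 bases downstream of the stop codon. The median distance from the stop codon was 31 bases (range 21 to 58). Of the other 22, 15 are annotated to end within 30 bases of the stop codon. The stems are in capitals and the loops in lower case, each read 5′ to 3′ in the sense of the gene and written with T as in the annotation.
H4c14 (chr3:96262939-96262954, minus strand): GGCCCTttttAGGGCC
H4c8 (chr13:23531458-23531473, plus strand): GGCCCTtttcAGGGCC
H4c11 (chr13:21735437-21735452, plus strand): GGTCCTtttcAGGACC
H2ac18 (chr3:96246032-96246047, plus strand): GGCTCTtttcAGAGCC
H2ac20 (chr3:96220418-96220433, minus strand): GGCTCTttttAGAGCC
H3c8 (chr13:23535889-23535904, plus strand): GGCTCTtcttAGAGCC
The H1, H2A, H2B and H3 stem-loops found shared the stem of H2ac18. Of the 11 H4 stem-loops, 9 had the stem of H4c14, and those of H4c2 and H4c11 had the stem printed for H4c11.

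Almost every histone gene that could be tested was lower in both knockdowns. By the DESeq2 Wald test of the authors' deposited table, 57 of 61 tested members fell and 0 rose with BAF250A shRNA (adjusted p below 0.05), where 17.5% of all tested genes were called lower and 11.2% higher. With BRD9 shRNA, the authors' deposited table had 50 of 62 tested members lower and 0 higher, where 9.33% of all tested genes were called lower and 5.11% higher. The median log2 fold change of the members was -3.94 with BAF250A shRNA and -3.35 with BRD9 shRNA in the authors' deposited tables. Over all genes with a fold change the medians in the authors' deposited tables were -0.30 for BAF250A and -0.22 for BRD9. In bulk RNA, fewer cells that make a message and less message per cell cannot be told apart.

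**Figure D1:**
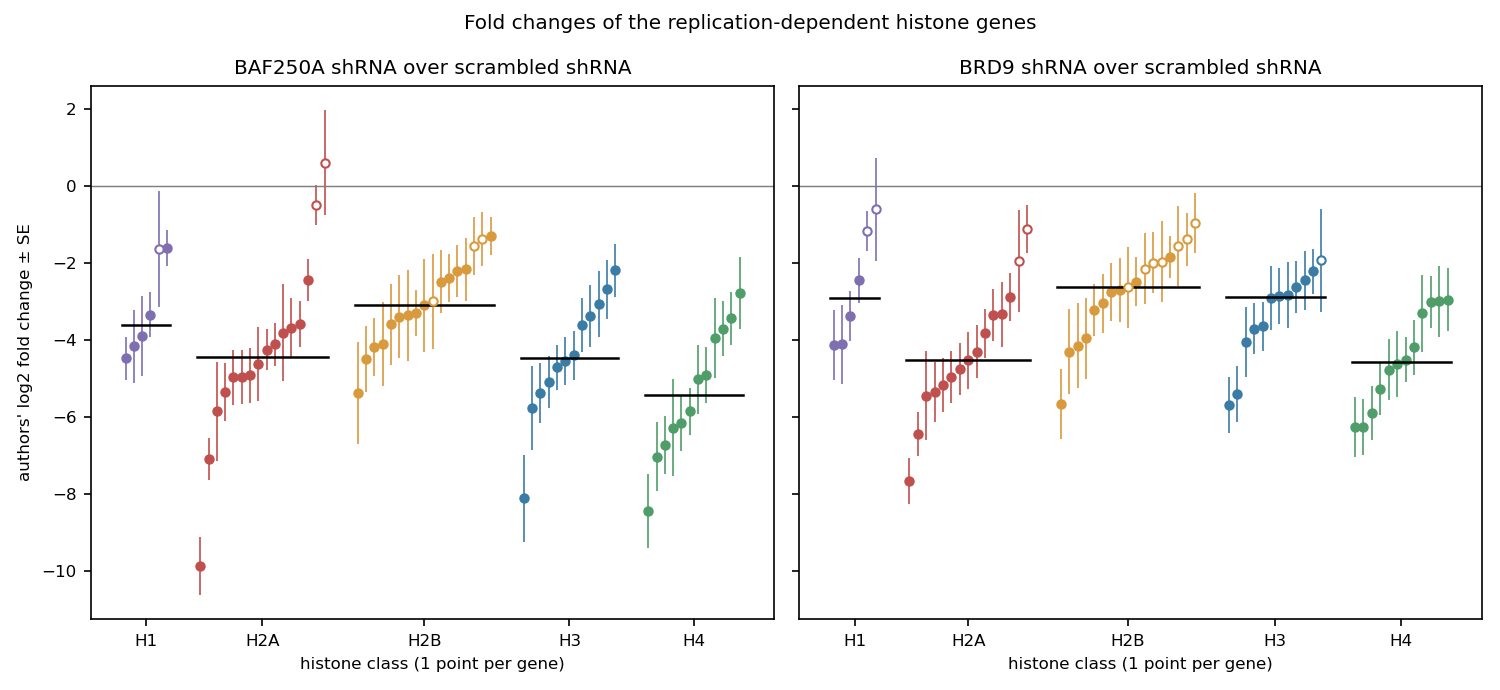
The authors' log2 fold change (points) with its standard error (bars) is plotted for each histone gene, ordered by size within its class, with filled points for an adjusted p below 0.05, open points for the rest and a black line at the class median. H4 has the lowest median with BAF250A shRNA (-5.44) and with BRD9 shRNA (-4.57), and 1 point lies above 0, H2ac1 with BAF250A shRNA, which rests on 1 read.

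Reads per library could be recovered for most members, because a deposited mean is a sum of whole reads divided by library size factors. They were recovered for 59 members, 1 more (H2ac10) had no read in any library, and 4 (H1f2, H2ac23, H2ac24 and H2bc4) could not be resolved. The recovered size factors in the BAF250A comparison were 0.801 and 0.773 for BAF250A shRNA and 1.58 and 1.09 for scrambled shRNA. In the BRD9 comparison they were 0.841 and 0.782 for BRD9 shRNA and 1.48 and 1.07 for scrambled shRNA. Within each group the library with the larger size factor is given first below, and values are normalized counts, that is reads divided by the size factor of that comparison.

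Summed over the 59 genes, the BAF250A libraries held 744 and 666 normalized counts, against 12479 and 30869 in the scrambled libraries, which is 3.25% of the scrambled mean. The BRD9 libraries held 1089 and 833, against 13307 and 31609 in the scrambled libraries, which is 4.28%. These sums leave out the unresolved H1f2, H2ac23, H2ac24 and H2bc4, and so do not describe the whole family. Of the members' summed mean counts, H2ac23, H1f2 and H2ac24 held 52.7% in the BAF250A and 51.7% in the BRD9 comparison. The authors' deposited log2 fold changes of H2ac23, H1f2 and H2bc4 were -0.49, -1.62 and -1.31 with BAF250A shRNA. With BRD9 shRNA they were -1.13, -1.18 and -1.84. H2ac24 fell further, at -4.26 for BAF250A and -4.97 for BRD9. The second knockdown library held 0.896 times the first for BAF250A and 0.765 times the first for BRD9, while the second scrambled library held 2.47 times the first in the BAF250A comparison. Both BAF250A libraries lay below both scrambled libraries in 58 of the 59 genes, and both BRD9 libraries in 56 of 59. Such separation is common in these tables: among 4977 genes with means from 3 to 200, it was found for 57.7% with BAF250A shRNA and for 52.4% with BRD9 shRNA. Of the 45 members in that range, 45 were separated with BAF250A shRNA and 44 with BRD9 shRNA.

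**Figure D2:**
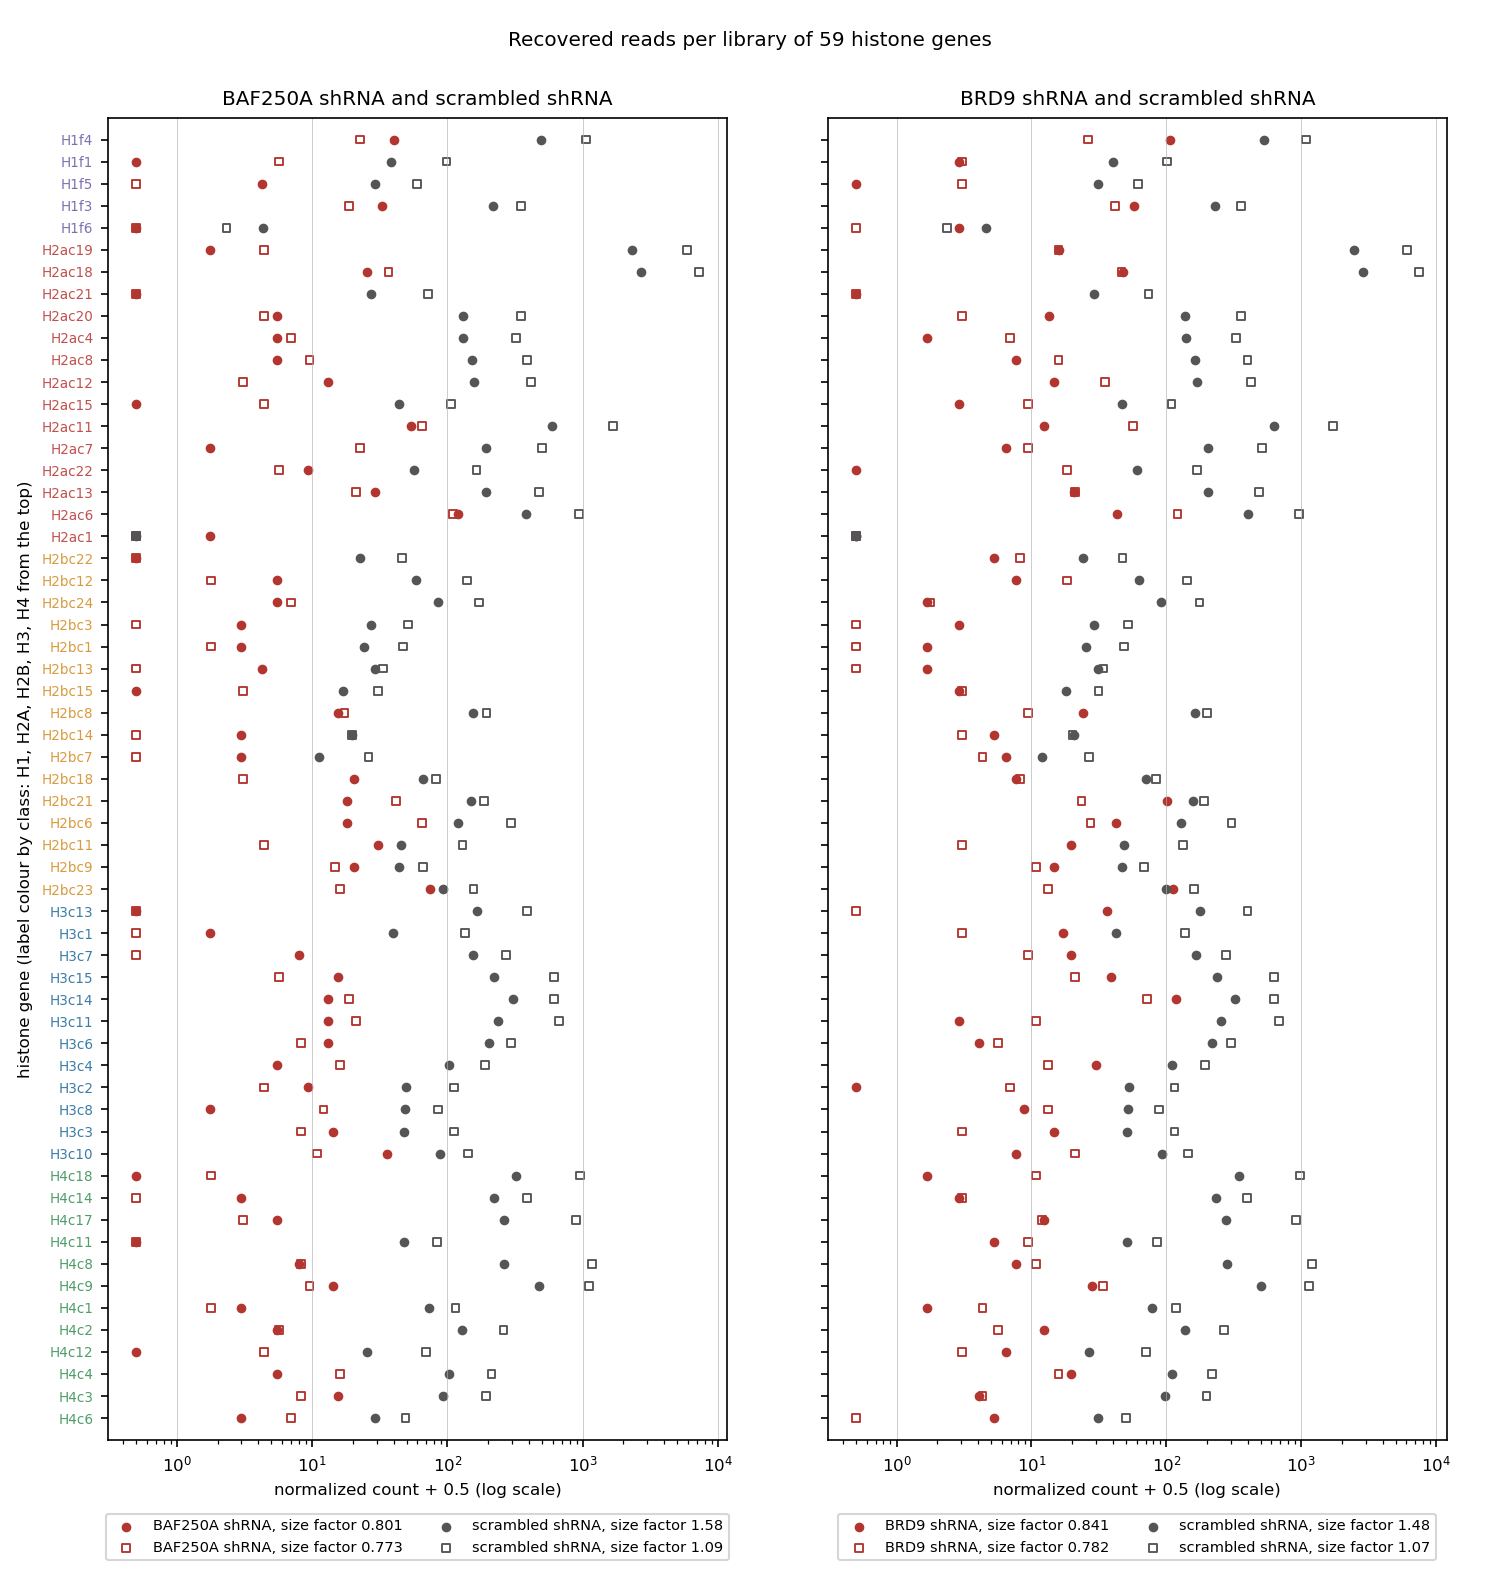
Normalized counts plus 0.5 (log axis) are plotted for the 59 histone genes with recovered reads, 1 row per gene, with knockdown libraries in red and scrambled libraries in grey, filled circles for the larger and open squares for the smaller size factor of a group. The red symbols lie left of the grey ones in 58 rows with BAF250A shRNA and 56 with BRD9 shRNA, and the grey squares lie mostly right of the grey circles.

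The difference between the scrambled libraries ran through the family. The library with the smaller size factor held more than the other in 57 of the 59 members, with a median ratio of 2.21. Over the 4977 genes with means from 3 to 200 the median ratio was 1.01, and 17.9% of them exceeded a ratio of 2, against 25 of the 45 members in the same range. Without that library, the median log2 ratio of the members from recovered reads was -3.62 with BAF250A shRNA and -3.27 with BRD9 shRNA, and with both scrambled libraries it was -4.36 with BAF250A shRNA and -3.84 with BRD9 shRNA. Of the called members, those with recovered reads (54 for BAF250A and 48 for BRD9) kept their direction when each library was left out in turn. That outcome was fixed beforehand, because both knockdown libraries lay below both scrambled libraries in each of them.

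H4 genes, which encode the partner of H3 in the central tetramer of the nucleosome, had the lowest class medians, -5.44 with BAF250A shRNA and, close to the -4.53 of H2A, -4.57 with BRD9 shRNA in the authors' deposited tables. All 12 H4 genes fell in each comparison. The H4 genes summed to 58.7 and 60.8 normalized counts in the BAF250A libraries, against 2030.2 and 5486 in the scrambled libraries, or 1.59% of the scrambled mean. With BRD9 shRNA they summed to 101 and 107, against 2165 and 5617 with scrambled shRNA, or 2.68%. The summed H2A genes with recovered reads stood at 2.17% with BAF250A shRNA and 2.02% with BRD9 shRNA. By these sums H4 was not the lowest class with BRD9 shRNA. The H2A sums leave out H2ac23 and H2ac24, whose reads were not resolved, so they cannot rank H2A as a whole against H4.

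H4c14 (gene 97122, formerly Hist2h4, chr3:96262934-96263317), whose stem-loop is printed above, is the clearest case because 1.0% of its annotated 50-base words occur in another gene. It had 2.50 and 0 normalized counts in BAF250A libraries, against 219.7 and 387 in scrambled libraries. BRD9 libraries held 2.38 and 2.56, against 234 and 396 in scrambled libraries. The groups were far apart in both comparisons. In the authors' deposited table it fell by 7.03 (SE 0.89, adjusted Wald p = 7.01e-14) with BAF250A shRNA. In the authors' deposited table for BRD9 it fell by 6.27 (SE 0.77, adjusted Wald p = 3.46e-14).

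H4c9 was the H4 gene with the highest mean. Its values were 13.7 and 9.06 in BAF250A libraries, against 472 and 1111 in scrambled libraries. BRD9 libraries held 27.3 and 33.2, against 503 and 1137 in scrambled libraries. It fell in both comparisons of the authors' deposited tables, with log2 fold changes of -5.86 (SE 0.61) for BAF250A and -4.51 (SE 0.59) for BRD9. H4c8 (chr13:23531044-23531478) had 7.49 and 7.76 in BAF250A libraries, against 262 and 1168 in scrambled libraries. With BRD9 shRNA it had 7.13 and 10.2, against 279.6 and 1196 with scrambled shRNA. Its log2 fold changes were -6.17 (SE 0.71) for BAF250A and -5.90 (SE 0.71) for BRD9, by the authors' deposited tables.

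Other H4 genes had as few reads with the knockdowns. H4c18 had 0 and 1.29 normalized counts in BAF250A libraries, against 323 and 952 in scrambled libraries. With BRD9 shRNA it had 1.19 and 10.2, against 344 and 974 with scrambled shRNA. The authors' deposited tables gave it log2 fold changes of -8.44 (SE 0.96) for BAF250A and -6.26 (SE 0.74) for BRD9. H4c17 fell in both comparisons of the authors' deposited tables, with log2 fold changes of -6.73 (SE 0.76) for BAF250A and -5.27 (SE 0.67) for BRD9. H4c11 had 0 reads in both BAF250A libraries, against 47.0 and 83.2 normalized counts in scrambled libraries, and was at least 33.5-fold lower, taking 3 reads over the knockdown group as the floor of detection. BRD9 libraries held 4.76 and 8.95, against 50.1 and 85.2 in scrambled libraries. The smallest H4 change with BAF250A shRNA was that of H4c6, at -2.77 (SE 0.93) by the authors' deposited table.

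H2A genes, which encode a subunit of the outer dimers of the nucleosome, made up most of the counts. Of 15 tested, 14 fell with BAF250A shRNA (median -4.45 over the 16 with a fold change) and 13 fell with BRD9 shRNA (median -4.53 over 15) in the authors' deposited tables. The 14 H2A genes with recovered reads summed to 267 and 288 normalized counts in BAF250A libraries, against 7060.2 and 18537 in scrambled libraries. With BRD9 shRNA they summed to 182 and 353, against 7529 and 18981 with scrambled shRNA. H2ac23 and H2ac24, the H2A genes with the highest means, are left out of these sums because their reads were not resolved. The sums therefore do not describe the whole class.

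H2ac19 and H2ac18, a pair of near-identical neighbours on chromosome 3, carried much of the H2A sums. H2ac19 (formerly Hist2h2aa2, chr3:96239779-96240374) had 1.25 and 3.88 normalized counts in BAF250A libraries, against 2308 and 5889 in scrambled libraries. In BRD9 libraries it had 15.5 and 15.3, against 2461 and 6029.9 in scrambled libraries. It had the lowest fold change of any member in each comparison, with log2 fold changes of -9.87 (SE 0.75) with BAF250A shRNA and -7.66 (SE 0.60) with BRD9 shRNA in the authors' deposited tables. H2ac18 (formerly Hist2h2aa1, chr3:96245497-96246052), whose stem-loop is printed above, had 20 and 28 reads in BAF250A libraries and 40 and 36 in BRD9 libraries, against 4263 and 7920 in scrambled libraries. Its log2 fold changes in the authors' deposited tables were -7.09 (SE 0.56) for BAF250A and -6.45 (SE 0.57) for BRD9. Of the annotated 50-base words, 100% of those of H2ac19 and 89.4% of those of H2ac18 occur in another gene, so the division of reads between them is uncertain.

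Several H2A genes with fewer shared words than H2ac19 and H2ac18 also fell. H2ac21 had 0 reads in all 4 knockdown libraries. It had 26.7 and 71.3 normalized counts in scrambled libraries of the BAF250A comparison and was at least 25.2-fold lower there, and at least 26.5-fold lower with BRD9 shRNA. Against the first scrambled library alone these bounds were 13.7-fold with BAF250A shRNA and 14.8-fold with BRD9 shRNA. H2ac4 (58.0% of words shared) stood at -4.97 (SE 0.72) for BAF250A and -5.36 (SE 0.78) for BRD9, by the authors' deposited tables. H2ac20 had 4.99 and 3.88 in BAF250A libraries, against 129 and 348 in scrambled libraries. H2ac6 (14.1% of words shared) kept more, with 119.8 and 110.0 in BAF250A libraries, against 378 and 943 in scrambled libraries. It fell in both comparisons of the authors' deposited tables, with log2 fold changes of -2.44 (SE 0.54) for BAF250A and -2.89 (SE 0.63) for BRD9.

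H2ac23, the H2A gene with the highest mean, stood apart. Its mean normalized count over the libraries of a comparison was 5745 for BAF250A and 5017 for BRD9 in the authors' deposited tables. Its log2 fold change was -0.49 (SE 0.52, adjusted Wald p = 0.518) with BAF250A shRNA and -1.13 (SE 0.62, adjusted Wald p = 0.253) with BRD9 shRNA in the authors' deposited tables, and neither passed the test. Of its annotated words, 93.5% occur in another gene. H2ac24 (93.1% shared) fell in both comparisons of the authors' deposited tables, with log2 fold changes of -4.26 (SE 0.54) for BAF250A and -4.97 (SE 0.67) for BRD9. H2ac7 and H2ac22 had discordant knockdown libraries. H2ac7 had 1 and 17 reads in BAF250A libraries, against 302 and 547 in scrambled libraries, and H2ac22 had 0 and 17.9 in BRD9 libraries, against 59.6 and 168 in scrambled libraries. H2ac22 did not pass the test with BRD9 shRNA (log2 fold change -1.96, SE 1.32, in the authors' deposited table), although both BRD9 libraries lay below both scrambled ones.

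H3 genes encode the histone whose tail carries many of the modifications used to mark chromatin. All 12 fell with BAF250A shRNA (median -4.48) and 11 of 12 fell with BRD9 shRNA (median -2.88) in the authors' deposited tables. H3c14, the H3 gene with the highest mean, had 12.5 and 18.1 normalized counts in BAF250A libraries, against 303 and 615 in scrambled libraries. BRD9 libraries held 117 and 71.6, against 324 and 629.9 in scrambled libraries. It fell in both comparisons of the authors' deposited tables, with log2 fold changes of -4.72 (SE 0.59) for BAF250A and -2.23 (SE 0.58) for BRD9. All of its words (100%) occur in another gene. H3c1 had 1.25 and 0 in BAF250A libraries, against 39.4 and 133 in scrambled libraries, and 16.6 and 2.56 in BRD9 libraries, against 42.0 and 137 in scrambled libraries. H3c7 fell in both comparisons of the authors' deposited tables, with log2 fold changes of -5.38 (SE 0.78) for BAF250A and -3.71 (SE 0.66) for BRD9.

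H3c11 and H3c6 had the lower log2 fold change with BRD9 shRNA, although neither difference between the knockdowns passed the test described below. H3c11 fell in both comparisons of the authors' deposited tables, with log2 fold changes of -4.55 (SE 0.63) for BAF250A and -5.70 (SE 0.72) for BRD9. H3c6 fell in both comparisons of the authors' deposited tables, with log2 fold changes of -4.40 (SE 0.63) for BAF250A and -5.40 (SE 0.72) for BRD9, and its BRD9 libraries held 3.57 and 5.11 normalized counts, against 215 and 300.5 in scrambled libraries.

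H2B genes had the weakest medians, -3.10 with BAF250A shRNA and -2.63 with BRD9 shRNA in the authors' deposited tables. Of the 17, 14 fell with BAF250A shRNA and 10 fell with BRD9 shRNA. The 16 with recovered reads summed to 217 and 171 normalized counts in BAF250A libraries, against 956 and 1666 in scrambled libraries, or 14.8% of the scrambled mean. With BRD9 shRNA they summed to 347 and 128, against 1019.5 and 1706 with scrambled shRNA, or 17.4%. H2bc4, the H2B gene with the highest mean, is left out of these sums because its reads were not resolved. Many H2B genes had few reads, with means between 9.72 and 1458 in the authors' deposited table for BAF250A.

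H2bc4, the most abundant H2B gene, fell in both comparisons of the authors' deposited tables, with log2 fold changes of -1.31 (SE 0.50, adjusted Wald p = 0.0318) for BAF250A and -1.84 (SE 0.54, adjusted Wald p = 0.00741) for BRD9. H2bc24 fell in both comparisons of the authors' deposited tables, with log2 fold changes of -4.18 (SE 0.75) for BAF250A and -5.67 (SE 0.91) for BRD9, where 1 read was left in each BRD9 library, against 133 and 187 reads in scrambled libraries. H2bc22 had 0 reads in both BAF250A libraries, against 22.2 and 45.7 normalized counts in scrambled libraries, and was at least 17.5-fold lower (11.5-fold against the first scrambled library alone). H2bc23 did not pass either test. It had 73.6 and 15.5 in BAF250A libraries, against 92.1 and 155 in scrambled libraries, and 111 and 12.8 in BRD9 libraries, against 98.2 and 159 in scrambled libraries, so the BRD9 groups overlapped. H2bc21, with 0% of its words shared, had 17.5 and 41.4 in BAF250A libraries, against 148 and 185 in scrambled libraries. In BRD9 libraries it had 99.9 and 23.0, against 158 and 189 in scrambled libraries. In the authors' deposited tables H2bc21 fell with BAF250A shRNA, at -2.39 (SE 0.61), and did not pass the test with BRD9 shRNA, at -1.39 (SE 0.69).

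H1 genes encode the linker histones, which bind DNA at its entry to the nucleosome. All 5 tested fell with BAF250A shRNA (median -3.62 over 6 genes), and 4 of 6 fell with BRD9 shRNA (median -2.91) in the authors' deposited tables. H1f4 had 39.9 and 22.0 normalized counts in BAF250A libraries, against 493 and 1051 in scrambled libraries. BRD9 libraries held 106 and 25.6, against 525 and 1076 in scrambled libraries. The authors' deposited tables gave H1f4 log2 fold changes of -4.48 (SE 0.56) for BAF250A and -3.37 (SE 0.65) for BRD9. H1f1 and H1f5, which share 0% of their words with another gene, had at most 5.17 normalized counts in any BAF250A library, against at least 28.6 in any scrambled library. H1f2 was the most abundant H1 gene, with a mean of 4674 in the BAF250A and 5268 in the BRD9 comparison in the authors' deposited tables. It fell with BAF250A shRNA, with a log2 fold change of -1.62 (SE 0.46), and stood at -1.18 (SE 0.52, adjusted Wald p = 0.122) with BRD9 shRNA in the authors' deposited tables. H1f6, the testis linker histone, had at most 6 reads in any library.

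**Figure D3:**
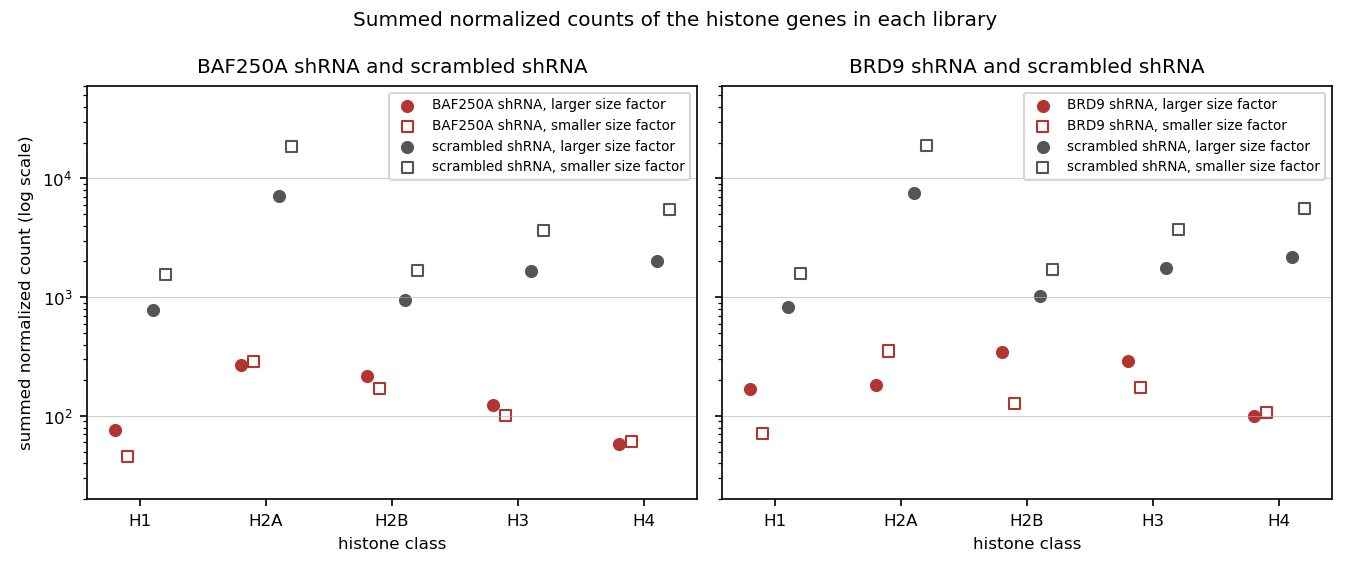
Summed normalized counts (log axis) of the histone genes with recovered reads are plotted by class for each library, knockdown libraries in red and scrambled libraries in grey. In every class both knockdown libraries lie below both scrambled libraries, from H4 at 1.59% of the scrambled mean with BAF250A shRNA to H2B at 17.4% with BRD9 shRNA. The unresolved H1f2, H2ac23, H2ac24 and H2bc4 are left out, among them the most abundant gene of H1, of H2A and of H2B.

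The difference between the knockdowns was tested on the 61 members tested in both tables, by dividing the gap between the log2 fold changes by their combined error, with Benjamini-Hochberg adjustment over 16311 genes. BAF250A minus BRD9 was negative for 38 of 61 members, with a median of -0.45, and the median over all genes was -0.0023. By class the median difference was -0.80 for H3, -0.74 for H4, -0.45 for H1, -0.41 for H2A and -0.08 for H2B. At an adjusted p below 0.05, 1 member was called, where 1.99% of all genes were called lower and 0.552% higher in BAF250A. At an unadjusted p below 0.05 there were 6 of 61, all of them lower with BAF250A shRNA, where 5.36% of all genes were lower and 2.99% higher at that threshold. The test ignores that the scrambled libraries cancel, which makes it conservative.

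The called gene was H3c13, with a difference of -6.17 (SE 1.75, adjusted p = 0.0211 by the normal test of the difference with Benjamini-Hochberg adjustment). It had 0 reads in both BAF250A libraries, against 260 and 426 reads in scrambled libraries, and was at least 143-fold lower (85.1-fold against the first scrambled library alone). In BRD9 libraries it had 30 and 0 reads, so the difference from BAF250A rests on 1 BRD9 library. The other BRD9 library had the same 0 reads as the BAF250A libraries. The BRD9 log2 fold change was -1.94 in the authors' deposited table and -3.97 from the recovered reads. Of its words, 79.7% occur in another gene. H3c14 was next, with a difference of -2.49 (SE 0.83) and an adjusted p of 0.0834 by the same test across all genes with Benjamini-Hochberg adjustment. The H3c14 reads were 10 and 14 with BAF250A shRNA and 98 and 56 with BRD9 shRNA, and all 4 knockdown libraries lay below the 478 and 673 reads with scrambled shRNA.

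Members were also counted by how much sequence they share with other genes. Of 32 members with under 50% of their 50-base words in another gene, 29 of 30 tested fell with BAF250A shRNA and 25 of 31 with BRD9 shRNA in the authors' deposited tables. In the other 32 members, 28 of 31 fell with BAF250A shRNA and 25 of 31 with BRD9 shRNA. The less shared members had medians of -3.66 for BAF250A and -3.23 for BRD9, and the more shared members -4.18 for BAF250A and -3.64 for BRD9, by the authors' deposited tables. The share was taken over all annotated words of a gene, so a long unshared 3′ end lowers it. H2ac6, at 14.1%, has 2010 annotated bases after its stem-loop. The division therefore partly follows annotated length and does not single out messages whose reads can be assigned to 1 gene.

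Some annotated transcripts run past the stem-loop. AATAAA, the commonest poly(A) signal, was sought in the longest coding transcript, after the stem-loop or, where none was found, after the stop codon. It occurs in 16 members and not in 48. The median log2 fold change of these 16 was -2.90 with BAF250A shRNA and -2.34 with BRD9 shRNA in the authors' deposited tables. For the 48 it was -4.11 with BAF250A shRNA and -3.77 with BRD9 shRNA. The ranges overlap widely: H1f2, H2bc4, H2bc9 and H2bc23, with small changes, are among the 16, and so is H4c14, with one of the lowest. Of the 16, 7 are H2B genes, the class with the weakest medians. Divided instead by an annotated end of 300 bases or more past the stop codon, H3 and H4 ran the other way with BAF250A shRNA. The authors' deposited table gave medians of -4.72 (H3) and -5.86 (H4) for the longer ends and -3.38 (H3) and -5.02 (H4) for the shorter. These divisions were made after the values were seen and carry no test.

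Promoters were searched in the RefSeq table for GRCm38.p6, which holds 250 bases before to 50 bases after the start of 59 members. The letters CCAAT, bound by NF-Y among others, occur on either strand in 51 of 59, against 37.4% of 32851 promoters in the table. They were in all H1, H2A, H2B and H3 promoters read and in 3 of 11 H4 promoters. The letters TATAAA, those of a TATA box, occurred on either strand in 34 of 59, against 13.6% of all promoters. No distance from the start was required, so a match need not be a TATA box. The octamer ATTTGCAT, known from H2B promoters as a site of OCT1, occurred in 6 of 15 H2B and 6 of 17 H2A promoters, in 0 of the H1, H3 and H4 promoters, and in 1.74% of all promoters. Each word was counted on its own, so matches to different words may overlap, and a match is a description of the sequence only. Some H2A and H2B genes start close together and share upstream sequence. The same site can then count in both classes, as does the octamer of H2ac8 and H2bc8.

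The 150 bases upstream of the start are printed for an H2B, an H3 and an H4 gene, since the classes differ in these words. They are in the sense of the gene, with matches to the words named above, on either strand, in capitals.
H2bc3 (chr13:23746584-23746733, plus strand): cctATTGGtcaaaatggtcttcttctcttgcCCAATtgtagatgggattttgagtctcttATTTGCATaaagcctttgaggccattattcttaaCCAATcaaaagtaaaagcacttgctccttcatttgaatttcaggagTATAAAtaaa
H3c3 (chr13:23745522-23745671, minus strand): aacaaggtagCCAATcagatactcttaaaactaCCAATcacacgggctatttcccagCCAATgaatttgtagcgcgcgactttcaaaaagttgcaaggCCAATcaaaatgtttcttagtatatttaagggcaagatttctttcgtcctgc
H4c18 (chr13:21832198-21832347, minus strand): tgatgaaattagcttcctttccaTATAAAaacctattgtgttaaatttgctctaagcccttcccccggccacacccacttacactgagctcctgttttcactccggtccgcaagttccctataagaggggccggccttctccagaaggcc
The H2bc3 stretch holds all 3 words, H3c3 holds CCAAT 4 times, and H4c18 holds TATAAA alone. All 3 genes fell with both shRNAs. H2bc3 had 2.50 and 0 normalized counts in BAF250A libraries, against 26.7 and 50.3 in scrambled libraries, and H3c3 had 13.7 and 7.76, against 47.0 and 112.

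In 10 pairs an H2A and an H2B gene start 164 to 281 bases apart and are read away from each other, so that they share upstream sequence. In 7 of the 10 pairs both genes fell with BAF250A shRNA, and in 5 both fell with BRD9 shRNA, in the authors' deposited tables. Of all tested H2A genes 93.3% fell with BAF250A shRNA and 86.7% with BRD9 shRNA. Of all tested H2B genes 82.4% fell with BAF250A shRNA and 58.8% with BRD9 shRNA. With most genes of both classes falling, the counts do not set the pairs apart. H2ac24 and H2bc24 stood at -4.26 and -4.18 with BAF250A shRNA and at -4.97 and -5.67 with BRD9 shRNA in the authors' deposited tables. Other pairs were less alike: H2ac7 and H2bc7 stood at -5.17 and -1.57 with BRD9 shRNA, and H2ac11 and H2bc11 at -4.12 and -2.17 with BAF250A shRNA, by the authors' deposited tables. With BAF250A shRNA the authors' deposited table had the order turned for H2ac22 and H2bc22, at -3.69 and -5.38. Neither H2ac23 nor H2bc23 passed a test in either comparison. In the pair H2ac1 and H2bc1, H2ac1 had 1 read in all libraries together, while H2bc1 fell by 3.60 (SE 1.04) with BAF250A shRNA in the authors' deposited table.

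Replacement and variant histones were called in both directions. Of 12, 3 rose (25%) and 1 fell (8.33%) in each comparison in the authors' deposited tables. Of all tested genes, 11.2% rose and 17.5% fell with BAF250A shRNA, and 5.11% rose and 9.33% fell with BRD9 shRNA. The medians of the 12 in those tables were 0.32 for BAF250A and 0.0038 for BRD9. H2az1, the H2A.Z variant, rose by 5.76 (SE 0.48) with BAF250A shRNA and by 5.35 (SE 0.54) with BRD9 shRNA in the authors' deposited tables. H3f3a, which encodes an H3 replacement histone, rose by 4.08 (SE 0.49) with BAF250A shRNA and by 3.91 (SE 0.54) with BRD9 shRNA in the authors' deposited tables. Macroh2a2 rose as well, and H2aj fell in both comparisons of the authors' deposited tables, with log2 fold changes of -2.40 (SE 0.49) for BAF250A and -2.71 (SE 0.53) for BRD9. H3f3b, which encodes the same protein as H3f3a, had mean normalized counts of 7.96 (BAF250A) and 7.59 (BRD9) in the authors' deposited tables and was called in neither. Processed pseudogenes resemble several of these genes, so the division of their reads is uncertain.

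Genes that process histone messages or drive their transcription were called at shares that can be read against all genes (17.5% lower and 11.2% higher with BAF250A shRNA, 9.33% lower and 5.11% higher with BRD9 shRNA). Of 18 processing and decay genes, 1 rose and 1 fell in each comparison in the authors' deposited tables, or 5.56% in each direction. Slbp, the stem-loop binding protein, rose by 1.55 (SE 0.49) with BAF250A shRNA and by 1.56 (SE 0.56) with BRD9 shRNA in the authors' deposited tables. Casp8ap2, or FLASH, which acts in cutting the histone message, fell in both comparisons of the authors' deposited tables, with log2 fold changes of -1.63 (SE 0.60) for BAF250A and -1.80 (SE 0.64) for BRD9. Of 14 transcription regulators, 3 fell with BAF250A shRNA (21.4%, near the 17.5% of all genes). These were Ccne1, E2f2 and E2f1, and the authors' deposited table had E2f1 at -1.13 (SE 0.44) and Ccne1 at -1.34 (SE 0.47). Cdk2 rose with BRD9 shRNA, by 1.38 (SE 0.47) in the authors' deposited table. Npat, the coactivator of the histone loci, stood at 0.53 (SE 0.56) with BAF250A shRNA and -0.40 (SE 0.63) with BRD9 shRNA in the authors' deposited tables.

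DNA replication genes, which are expressed in S phase like the histone genes, were called at shares near those of all genes in the higher direction. In the lower direction their shares were below those of all genes. Of 45, 6 rose (13.3%, beside 11.2% of all genes) and 1 fell (2.22%, beside 17.5%) with BAF250A shRNA. Their median log2 fold change was 0.26, and these values are from the authors' deposited table. With BRD9 shRNA 3 rose (6.67%, beside 5.11%) and 0 fell (0%, beside 9.33%), with a median of 0.25, in the authors' deposited table. Rpa3, a subunit of the single-strand binding protein, rose by 2.17 (SE 0.51) with BAF250A shRNA and by 1.79 (SE 0.54) with BRD9 shRNA in the authors' deposited tables. Pcna, the sliding clamp, rose by 1.74 (SE 0.45) with BAF250A shRNA and by 1.76 (SE 0.53) with BRD9 shRNA in the authors' deposited tables, and Fen1, the flap nuclease, fell by 1.73 (SE 0.48) with BAF250A shRNA in the same source. Of 6 markers of cycling cells, Ccnb1 rose in both comparisons and the other 5 passed neither test. Of 20 histone chaperones and import factors, 5 rose (25%, beside 11.2% of all genes) and 1 fell (5%, beside 17.5%) with BAF250A shRNA. With BRD9 shRNA 4 rose (20%, beside 5.11%) and 0 fell (beside 9.33%), by the authors' deposited tables. Rbbp7, Nap1l1, Ipo4 and Rbbp4 rose in both, Hat1 rose with BAF250A shRNA, and Nap1l1 stood at 1.95 for BAF250A and 1.84 for BRD9 in the authors' deposited tables.

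RNAs that, like most histone messages, lack a poly(A) tail were lower too. Of 20 listed, 13 were tested with BAF250A shRNA, where 10 fell (76.9%, beside 17.5% of all genes) and 0 rose. With BRD9 shRNA 15 were tested, of which 8 fell (53.3%, beside 9.33% of all genes) and 0 rose, by the authors' deposited tables. Their medians in those tables were -3.27 for BAF250A (over 16 with a fold change) and -1.71 for BRD9 (over 17). Rnu2-10, a U2 spliceosomal RNA gene, had 0 and 0 normalized counts in BAF250A libraries, against 194 and 424 in scrambled libraries, and 0 and 2.56 in BRD9 libraries, against 206 and 434 in scrambled libraries. Rnu12 had 0 reads in all 4 knockdown libraries, against 26.0 and 96.0 normalized counts in scrambled libraries of the BAF250A comparison. Snord3a and Rnu11 also had 0 reads in both BAF250A libraries and fell in both comparisons. Rn7sk, the 7SK RNA, fell in both comparisons of the authors' deposited tables, with log2 fold changes of -2.12 (SE 0.49) for BAF250A and -1.84 (SE 0.56) for BRD9. Rmrp and Rpph1, the RNAs of the RNase MRP and RNase P enzymes, passed neither test. Rmrp had 42.4 and 38.8 in BAF250A libraries, against 23.5 and 49.4 in scrambled libraries, and its groups overlapped.

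These RNAs also resembled the histone genes in how the scrambled libraries differed. For 12 of them with a mean of at least 5 and recovered reads, the scrambled library with the smaller size factor held more in 11, with a median ratio of 2.24, beside 2.21 for the histone genes and 1.01 for all genes with means from 3 to 200. Summed, the 12 had 137 and 131 normalized counts in BAF250A libraries, against 543 and 1219 in scrambled libraries, and 143 and 169 in BRD9 libraries, against 579 and 1249 in scrambled libraries. The part of RNA selection in the fall of the histone genes was not tested.

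**Figure D4:**
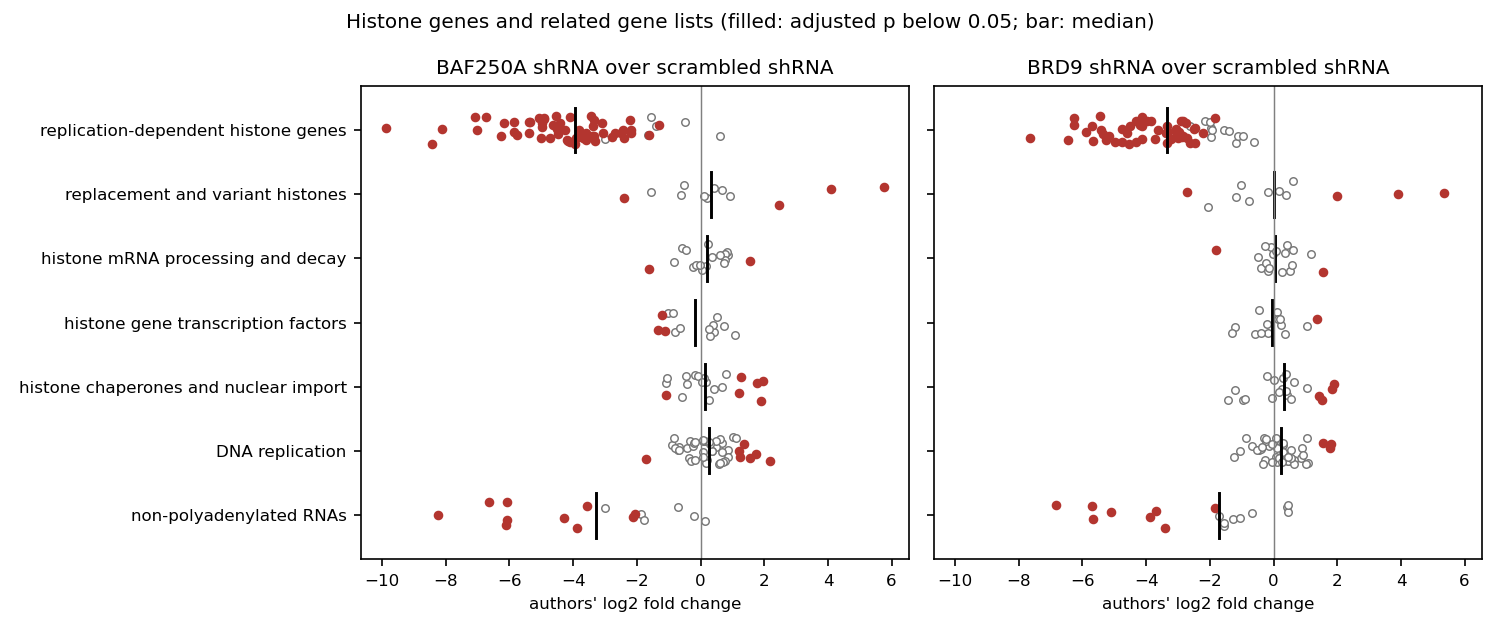
The authors' log2 fold changes are plotted for the histone genes and 6 related lists, 1 point per gene, filled for an adjusted p below 0.05, with a bar at the median of each list. The histone genes (median -3.94 with BAF250A shRNA) and the non-polyadenylated RNAs (-3.27) lie left of 0, while the medians of the other 5 lists lie between -0.19 and 0.33 over both comparisons.

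The cell type was checked on marker genes. Des, the muscle intermediate filament, had a mean of 138937 normalized counts for BAF250A and 168238 for BRD9, by the authors' deposited tables. Myotube markers fell with BAF250A shRNA in 5 of 5 genes and with BRD9 shRNA in 0 of 5 (1 rose), while the histone genes fell in both. Of 4 macrophage markers, Ptprc and Adgre1 had means below 1, Csf1r had a mean of 25.7 for BAF250A and passed neither test, and Cd68 fell in both comparisons (-2.53 for BAF250A and -2.46 for BRD9), by the authors' deposited tables. Of 3 endothelial markers, Kdr fell with the histone genes (-7.60 for BAF250A and -5.32 for BRD9, mean 89.6 in the first comparison), while Pecam1 and Cdh5 had means of at most 7.07 and were not called, by the authors' deposited tables. Of 3 fibroblast markers, Pdgfra rose with BAF250A shRNA (2.69, mean 1020.5), and Dcn (mean 1778 for BAF250A) and Lum passed neither test, by the authors' deposited tables. None of the 3 epithelial markers was called, and Epcam had a mean below 1 in both comparisons. The part of these differences in the histone values was not tested.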

How the data were processed

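RNA sequencing of 6 libraries was available as 2 comparison tables of 27179 genes. DESeq2, RSEM, Bowtie, HISAT and StringTie, with build mm10, appear in the submitters' processing notes without roles or versions. Per the file headers, the authors deposited a mean normalized count (a signal, reads divided by size factors and averaged over 4 libraries), a log2 fold change with its standard error, the Wald score, a p-value and an adjusted p-value. Each group has 2 libraries, biological duplicates per the series' design text. The deposited p-values rest on these duplicates, and whether they cover differences between shRNA sequences or clones is unknown.

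Whole reads per library were solved jointly from both tables' means (Python 3.11.15, numba 0.67.0), keeping genes with a single solution. For 3 members of high mean the deposited fold change was also needed. The libraries with identical reads in both tables were taken as the scrambled ones: this choice solved 2102 of 2102 low genes, and the next best 2069. Read ratios had the sign of the deposited fold change in 1726 of 1726 called genes (BAF250A) and 1018 of 1018 (BRD9), so positive means higher with the knockdown. The recovered log2 ratios were larger in size than the deposited values (median difference -0.21 for BAF250A and -0.32 for BRD9), which look shrunken. Which library is labelled A or B is unknown. Total depth per library was not analysed here; the summed mean normalized counts were 42781325 and 42792326, of which the members held 0.0625% and 0.0633%. Intervals and floors cover counting error only.

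On simulated data the recovery returned the reads put in, while the difference test did not call all of the genes that were changed, even at the largest size used. Named genes were the called members with the largest changes (up to 12 a comparison), the most abundant member of each class, members called between knockdowns, and up to 4 called genes of each other list. Genes named outside this rule (H2ac6, H2ac20, H2ac22, H2bc9, H2bc21, H2bc22, H2bc23, H1f1, H1f4, H1f5, H1f6, H4c6, H2bc3, H3c3, the paired genes, H3f3b, Npat, Rn7sk, Rmrp, Rpph1, Des and the markers of other cell types) were chosen after their values were seen. The members and lists were chosen with earlier results of these data known.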

Additional observations from a re-analysis of the deposited data

Results flagged for a closer look

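H3c13 was the 1 histone gene whose change differed between the knockdowns by a test of the difference itself, by -6.17 for BAF250A minus BRD9. It was 1 of 61 members tested, where 1.99% of all genes were called lower in BAF250A, so the count does not set the histone genes apart. The reads were 0 and 0 with BAF250A shRNA, 30 and 0 with BRD9 shRNA, and 260 and 426 with scrambled shRNA. The BRD9 log2 fold change was -1.94 in the authors' deposited table and -3.97 from the recovered reads, and 79.7% of its annotated 50-base words occur in another gene.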

How the results depend on the processing

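The counts of fallen histone genes, 57 with BAF250A shRNA and 50 with BRD9 shRNA, stayed within 1.5 times of themselves with adjusted p below 0.01 or 0.1, with no filter on low counts, with a mean of 10 or more, and with fold changes centred on genes with means of 100 or more, and no member rose under any of these. Bonferroni adjustment left 34 with BAF250A shRNA and 26 with BRD9 shRNA. The count that differed between knockdowns, 1 as reported, was 2 (H3c13 and H3c14) at an adjusted p below 0.1. It was 3 (H3c13, H3c14 and H2ac19) when the smaller squared standard error was subtracted from the squared combined error. That subtraction can remove more than the variance of the shared controls, so the 3 may be too many. Leaving out each library in turn, the median log2 ratio of the members ran between -4.82 and -3.62 with BAF250A shRNA and between -4.37 and -3.27 with BRD9 shRNA. None of the called members with recovered reads (54 and 48) reversed, which was fixed beforehand by the separation of their groups. The called members H1f2 (BAF250A), H2ac24 and H2bc4 could not be examined this way. Centring brought 1 member past the threshold, H2bc7 with BAF250A shRNA. The counts of calls were not recomputed without a library, because the deposited test holds all 4. No paired analysis was possible because the tables have no column per library that carries the labels A and B. Fold bounds for members with 0 knockdown reads were lower against the first scrambled library alone. The division of reads between near-identical copies by the authors' counting is uncertain.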
